A study of Mus musculus with 18 samples.

Results

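The MHC class I antigen presentation machinery was followed through 10 genes in murine E0771 cells, a triple-negative breast cancer line. They were taken by symbol from the 50686 genes of the count files and comprise the class I heavy chains H2-K1 and H2-D1, the light chain B2m, the peptide transporter subunits Tap1 and Tap2, the loading factor Tapbp, the immunoproteasome subunits Psmb8, Psmb9 and Psmb10, and the transactivator Nlrc5. All 10 were among the 12772 genes that passed the filter on low counts.

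RNA-seq was done on 3 stably transduced E0771 lines. All carried a luciferase construct, and were then infected with a retrovirus bearing a hairpin and mCherry, on which they were sorted. The line cntrl expressed a non-targeting Renilla hairpin, and the lines CDK8.1593 and CDK8.1830 each expressed a different hairpin against Cdk8. Cells of each line received DMSO or 1 µM Senexin B (SnxB) for 48 h. SnxB is an inhibitor of the kinase activity of CDK8 and of its paralog CDK19. There were 3 libraries per group and 18 in all. The design sets knockdown of Cdk8 by hairpin, which was partial in mRNA, beside inhibition of CDK8 kinase activity. Each hairpin was present as 1 line, so hairpin and line cannot be told apart. The labels do not say whether the 3 libraries of a group came from separate cultures, and p-values then measure the spread between these libraries, which may be technical.

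MHC class I molecules show peptides from inside the cell to CD8+ T cells and are read by inhibitory receptors of NK cells. Proteasomes cut the peptides, TAP carries them into the endoplasmic reticulum, and tapasin holds empty heavy chains with B2m beside TAP until they are loaded. NLRC5 binds no DNA itself, and works through factors on a conserved promoter element of class I genes that includes the X2 box (CREB/ATF factors) and the Y box (NF-Y).

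The libraries held 16452260 to 22664693 counts. Levels are CPM, read counts scaled to library size with TMM factors, and 3 counts correspond to 0.132 to 0.182 CPM, by counting error alone. Cdk8 stood at 56.1 ± 2.13 CPM (SD, n = 3) in cntrl in DMSO, at 21.4 ± 2.44 in CDK8.1593 and at 38.9 ± 0.376 in CDK8.1830, a fall to 0.383-fold and 0.693-fold. Epithelial markers were at or near 0 in cntrl cells, where 6 markers (Krt8, Krt18, Krt7, Krt19, Epcam and Cdh1) summed to 0.325 to 0.490 CPM in DMSO. The sum was 8.22 to 9.18 CPM in CDK8.1593 and 12.5 to 14.6 CPM in CDK8.1830, most of it Krt8. Pgr was at 0 in every group, Erbb2 averaged 55.4 CPM in cntrl cells in DMSO, and Esr1 averaged 23.1 CPM in cntrl, 1.25 CPM in CDK8.1593 and 0.951 CPM in CDK8.1830. The mesenchymal and endothelial list was led by Pdgfrb, at 265.3 CPM in cntrl and 166.4 and 162.3 CPM in the hairpin lines. Of its 5 genes, Pdgfrb and Cdh5 fell, and 3 (Col1a1, Col1a2 and Pecam1) rose by over 2-fold, in each hairpin line in DMSO. The hairpin lines thus also differed from cntrl in cell-state markers, and the part of this in the class I values was not tested. Markers of immune cells (9 genes, Ptprc and Cd3e among them) summed to at most 0.875 CPM and those of class II (4 genes) to at most 0.714 CPM in any library.

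The genes lie on 3 chromosomes (GRCm38). On chromosome 17, 7 of them fall within 1352 kb, from Tapbp (33915899 to 33929288, plus strand) through H2-K1 (33996017 to 34000333, minus strand), Psmb9 (34181988 to 34187764, minus), Tap1 (34187553 to 34197225, plus), Psmb8 (34197721 to 34201454, plus) and Tap2 (34203527 to 34216321, plus) to H2-D1 (35262730 to 35267499, plus). B2m is on chromosome 2 (122147686 to 122153083, plus), and Psmb10 (105935735 to 105938444, minus) and Nlrc5 (94434356 to 94527272, plus) are on chromosome 8. Psmb9 and Tap1 overlap head to head on opposite strands, and the authors' counting used strand.

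RefSeq promoter windows (GRCm38.p6, 250 bases before to 50 after the start site) were at hand for 8 of the genes. Those of H2-K1, H2-D1, B2m and Tap1, genes lower in both hairpin lines, are shown, and that of Tapbp, which was not lower. Psmb8 and Psmb9 were also lower in both lines, and their windows are not shown. Capitals mark 4 motifs searched on both strands, which may overlap: the X2 box core TGACG, the Y box ATTGG, the interferon element core GAANNGAAA and the NF-kB element GGGNNTNCCC. Each was searched in this form only, and other forms of the elements are not marked. The windows are chr17:34000298-34000597 (minus strand) for H2-K1, chr17:35262844-35263143 (plus) for H2-D1, chr2:122147437-122147736 (plus) for B2m, chr17:34187306-34187605 (plus) for Tap1 and chr17:33919228-33919527 (plus) for Tapbp.
H2-K1: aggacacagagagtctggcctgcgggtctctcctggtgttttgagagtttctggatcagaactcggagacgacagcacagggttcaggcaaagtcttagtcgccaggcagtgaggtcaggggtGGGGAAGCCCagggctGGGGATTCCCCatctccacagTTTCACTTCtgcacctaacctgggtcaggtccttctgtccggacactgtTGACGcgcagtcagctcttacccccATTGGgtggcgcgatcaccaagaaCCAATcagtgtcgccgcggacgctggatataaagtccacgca
H2-D1: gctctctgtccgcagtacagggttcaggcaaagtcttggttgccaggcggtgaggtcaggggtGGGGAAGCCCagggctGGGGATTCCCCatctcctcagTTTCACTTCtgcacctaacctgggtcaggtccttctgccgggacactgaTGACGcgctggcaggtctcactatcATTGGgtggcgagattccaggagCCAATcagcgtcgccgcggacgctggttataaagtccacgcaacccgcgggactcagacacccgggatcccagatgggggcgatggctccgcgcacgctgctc
B2m: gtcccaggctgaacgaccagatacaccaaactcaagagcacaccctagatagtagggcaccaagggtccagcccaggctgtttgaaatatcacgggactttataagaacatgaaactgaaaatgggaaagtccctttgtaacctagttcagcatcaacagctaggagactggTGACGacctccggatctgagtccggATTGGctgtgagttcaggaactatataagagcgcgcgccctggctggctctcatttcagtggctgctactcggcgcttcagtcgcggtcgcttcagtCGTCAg
Tap1: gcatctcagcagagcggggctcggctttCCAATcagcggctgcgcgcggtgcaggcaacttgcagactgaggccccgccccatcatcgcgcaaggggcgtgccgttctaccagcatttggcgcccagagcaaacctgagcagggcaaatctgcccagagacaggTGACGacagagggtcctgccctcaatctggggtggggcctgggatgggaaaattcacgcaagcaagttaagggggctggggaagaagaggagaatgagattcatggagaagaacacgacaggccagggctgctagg
Tapbp: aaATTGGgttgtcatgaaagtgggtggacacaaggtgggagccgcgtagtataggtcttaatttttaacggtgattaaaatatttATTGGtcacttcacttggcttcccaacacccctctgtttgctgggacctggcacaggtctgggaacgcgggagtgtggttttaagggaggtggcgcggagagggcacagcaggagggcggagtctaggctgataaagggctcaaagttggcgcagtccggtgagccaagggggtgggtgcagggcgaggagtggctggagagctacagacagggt

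The class I heavy chain promoters held all 4 motifs in the searched forms. In H2-K1 and H2-D1 the same series ran from the NF-kB element (GGGGATTCCCC in both) over the interferon element, read here on the other strand as TTTCACTTC, to the X2 core and the Y box. In the B2m window the X2 core began 78 bases and the Y box 53 bases before the start site. TGACG followed on the same strand by ATTGG after 5 to 40 bases was found in H2-K1, H2-D1 and B2m, and in 1.13% of the 27018 promoters searched. The Tap1 window overlaps that of Psmb9 over 275 bases, and both held TGACG and ATTGG on opposite strands. TGACG alone was in 5 of the 8 windows and in 21.0% of all promoters, and ATTGG alone in 6 of 8 and in 37.9%. Tapbp had ATTGG without TGACG. The windows of Psmb8, which was lower in both hairpin lines, and of Psmb10, which was not, held none of the 4. GAANNGAAA and GGGNNTNCCC were in H2-K1 and H2-D1 and in 7.57% and 4.83% of all promoters. Both patterns fix the spacing, so forms of these elements with other spacing were not counted. The B2m window holds gaaactgaaa and gggaaagtccc, which the patterns miss by their spacing. A window without a match may therefore still hold such an element. All matches are of letters, not measured binding.

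Per kilobase of exon, B2m was the most abundant of the 10 in cntrl cells in DMSO, at 747.8 ± 17.8 CPM per kb, followed by H2-D1 at 234.0 ± 4.45. H2-K1 (41.3 ± 0.654), Tap2 (28.7 ± 1.36), Tapbp (27.3 ± 1.14) and Psmb8 (19.4 ± 0.97) were intermediate, and Tap1 (12.4 ± 0.36), Psmb10 (10.3 ± 0.341) and Nlrc5 (8.99 ± 0.314) were lower. Psmb9 was lowest, at 1.73 ± 0.182 CPM per kb, or 108 to 123 reads per library. The length is the union of all annotated exons and overstates the mRNA, so that these levels are approximate. The SD within a group had a median of 3.20% of the mean over 60 sets of gene and group, and a maximum of 31.8%, for Psmb9 in CDK8.1830 in SnxB.

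**Figure D1:**
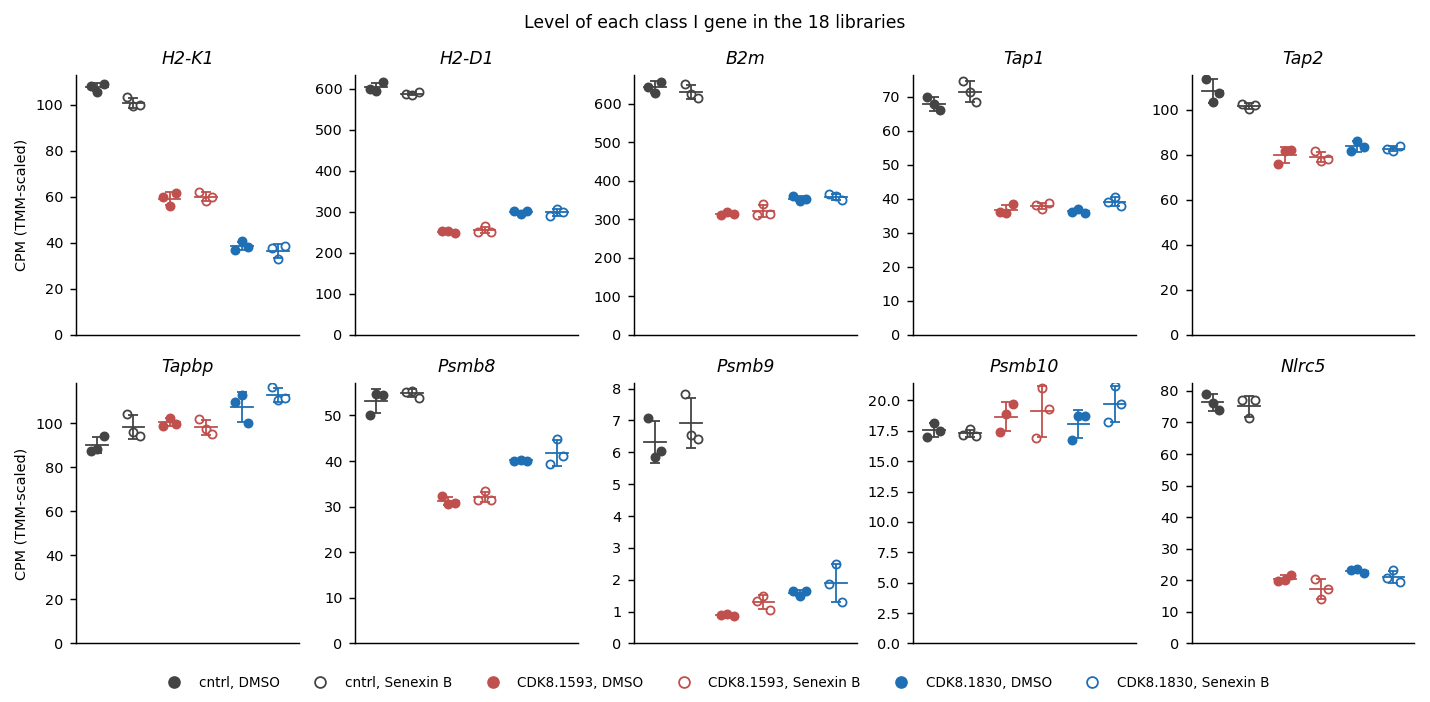
Level of each class I gene in CPM (vertical axis, linear, from 0) in each of 18 libraries, by line (colour) and treatment (filled, DMSO; open, Senexin B). Bars are the mean and SD of 3 libraries. In 8 genes, and in 19.6% of all genes tested, the cntrl libraries lie above every hairpin library. Tapbp and Psmb10 do not show this.

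In DMSO, both hairpin lines had less mRNA for 8 of the 10 genes than cntrl. The test is edgeR's quasi-likelihood test on all 18 libraries, with a gene taken as past the test at a Benjamini-Hochberg adjusted p under 0.05. H2-K1, H2-D1, B2m, Tap1, Tap2, Psmb8, Psmb9 and Nlrc5 fell in both lines, Tapbp rose in both, and Psmb10 passed in neither. Of all genes tested, 29.5% were lower and 30.1% higher in CDK8.1593, and 28.1% were lower and 29.0% higher in CDK8.1830, so that passing the test was common. A fall of more than 2-fold was less so, at 7.14% and 5.95% of all genes, and was seen for 4 of the 10 in each line. In DMSO the hairpin libraries lay below all cntrl libraries without overlap for 32.1% of all genes in CDK8.1593 and 31.8% in CDK8.1830. Both comparisons used the same cntrl libraries. The median log2 fold change of the 10 was −0.87 in CDK8.1593 and −0.88 in CDK8.1830, against 0.01 over all genes in both. In bulk RNA, fewer cells with a transcript and less of it per cell cannot be told apart.

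H2-K1 and H2-D1 encode the classical heavy chains. H2-K1 was at 105.7, 108.2 and 109.0 CPM in cntrl in DMSO, at 55.9, 60.1 and 61.7 CPM in CDK8.1593, and at 36.9, 38.4 and 40.7 CPM in CDK8.1830. No libraries of these groups overlapped, and the gene fell by 44.9% in CDK8.1593 (log2 fold change −0.86 ± 0.05 SE, adjusted p = 9.36e-12) and fell by 64.1% in CDK8.1830 (−1.48 ± 0.05, adjusted p = 5.11e-15).

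H2-D1 was at 594.5, 599.3 and 616.3 CPM in cntrl, at 248.2, 252.1 and 254.0 CPM in CDK8.1593, and at 295.7, 300.7 and 301.2 CPM in CDK8.1830. It fell by 58.3% in CDK8.1593 (−1.26 ± 0.03, adjusted p = 1.64e-17) and fell by 50.4% in CDK8.1830 (−1.01 ± 0.03, adjusted p = 8.29e-16), more in the line where H2-K1 fell less. Reads of 50 bases that also match another gene were not counted, which concerned 8.79% of the positions of the longest coding H2-K1 transcript and 14.3% of those of H2-D1 in the GENCODE M21 transcripts.

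B2m, the light chain common to all class I molecules, was at 627.1, 644.6 and 657.7 CPM in cntrl, at 309.9, 312.7 and 318.2 CPM in CDK8.1593, and at 348.0, 352.6 and 360.9 CPM in CDK8.1830. It fell by 51.2% (−1.04 ± 0.04, adjusted p = 3.52e-15) and fell by 45.0% (−0.86 ± 0.04, adjusted p = 9.59e-14), and the 3 groups did not overlap. The B2m transcript had no 50-base stretch in common with another gene.

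Tap1 and Tap2 form the transporter that brings peptides into the endoplasmic reticulum. Tap1 was at 66.0, 67.8 and 70.0 CPM in cntrl, at 35.9, 36.2 and 38.5 CPM in CDK8.1593, and at 35.8, 36.2 and 37.1 CPM in CDK8.1830, a fall of a like size in the lines (−0.88 ± 0.04 and −0.90 ± 0.04, adjusted p = 7.54e-13 and 7.72e-13). Tap2 was at 103.6, 107.7 and 113.8 CPM in cntrl, at 75.8, 81.6 and 82.1 CPM in CDK8.1593, and at 81.6, 83.5 and 86.1 CPM in CDK8.1830. It fell by 26.4% and 22.7% (−0.44 ± 0.04 and −0.37 ± 0.04, adjusted p = 1.16e-08 and 1.59e-07), less than Tap1 in both lines by the fold changes, and every hairpin library lay below every cntrl library.

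Tapbp encodes tapasin, which bridges TAP and the heavy chain. It was at 87.4, 88.4 and 94.3 CPM in cntrl, at 98.9, 99.7 and 102.4 CPM in CDK8.1593, and at 99.9, 109.5 and 112.7 CPM in CDK8.1830. Tapbp rose by 11.3% in CDK8.1593 (0.16 ± 0.05, adjusted p = 0.00991) and by 19.3% in CDK8.1830 (0.25 ± 0.05, adjusted p = 0.000159). The call in CDK8.1593 was lost without cntrl DMSO replicate 1 (0.13, adjusted p = 0.0532). Tapbp shares stretches with many genes, with 21.0% of its 50-base positions also found in transcripts of another gene on either strand. These genes include Gm19412, which overlaps Tapbp on the opposite strand, so some of these positions may occur only once in the genome. Tapbp also overlaps Zbtb22 on the same strand.

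The immunoproteasome subunits replace the catalytic subunits of the constitutive proteasome. Psmb9 fell furthest of the 10 genes in both lines. It was at 5.86, 6.03 and 7.08 CPM in cntrl, at 0.878, 0.893 and 0.912 CPM in CDK8.1593, and at 1.48, 1.64 and 1.65 CPM in CDK8.1830, so that it fell by 85.7% (−2.81 ± 0.19, adjusted p = 6.62e-11) and fell by 74.6% (−1.98 ± 0.16, adjusted p = 2.79e-09). These levels rest on 16 to 19 reads per library in CDK8.1593 and 29 to 38 in CDK8.1830.

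Psmb8 was at 50.0, 54.6 and 54.7 CPM in cntrl, at 30.7, 30.8 and 32.2 CPM in CDK8.1593, and at 40.1, 40.1 and 40.2 CPM in CDK8.1830. It fell by 41.2% (−0.77 ± 0.05, adjusted p = 5.89e-11) and fell by 24.5% (−0.41 ± 0.05, adjusted p = 5.95e-07). Psmb10 was at 17, 17.5 and 18.2 CPM in cntrl, at 17.4, 18.9 and 19.7 CPM in CDK8.1593, and at 16.8, 18.7 and 18.7 CPM in CDK8.1830, and the groups overlapped. Its log2 fold changes were 0.09 (95% interval −0.08 to 0.26, adjusted p = 0.379) and 0.04 (−0.13 to 0.21, adjusted p = 0.706), and neither interval reached the fold change of Psmb8 in that line.

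Nlrc5 was at 73.8, 76.2 and 79.2 CPM in cntrl, at 19.8, 20.2 and 21.7 CPM in CDK8.1593, and at 22.5, 23.2 and 23.4 CPM in CDK8.1830. It fell by 73.1% (−1.89 ± 0.08, adjusted p = 7.10e-14) and fell by 69.8% (−1.73 ± 0.08, adjusted p = 3.40e-13), next to Psmb9 the largest change of the 10 in each line. No cntrl library came near a hairpin library.

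**Figure D2:**
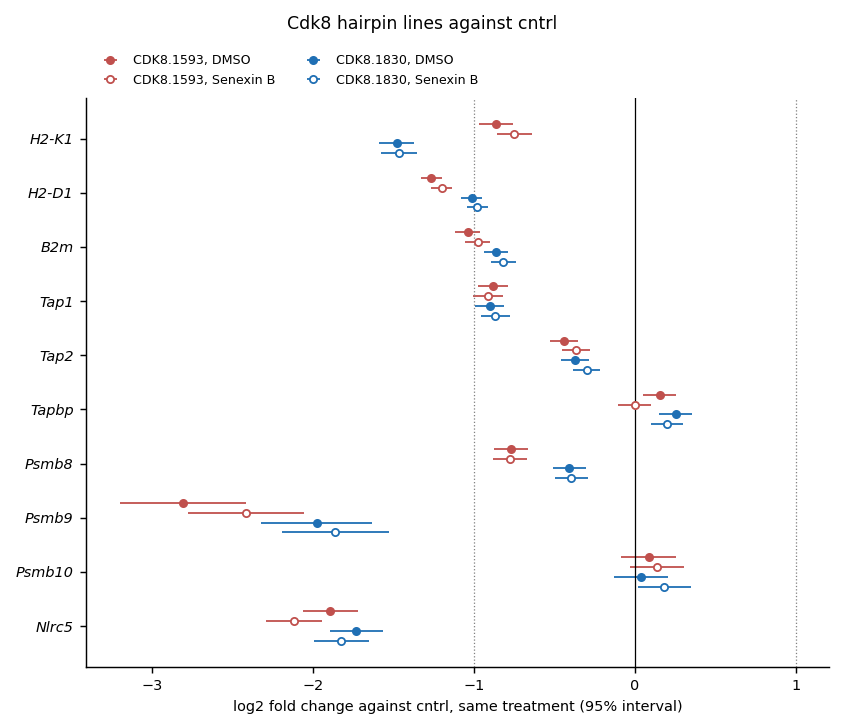
Log2 fold change of each class I gene in the hairpin lines against cntrl under the same treatment (horizontal axis), with 95% intervals, in DMSO (filled) and in Senexin B (open). Dotted lines mark 2-fold. Psmb9 and Nlrc5 lie furthest to the left, at −2.81 and −1.89 in CDK8.1593 in DMSO, and Tapbp and Psmb10 stay near 0.

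Since constitutive and immunoproteasome subunits compete for the same places, each immunosubunit was also set against its constitutive counterpart within each library, per kilobase of exon. The exon union is 2736 bases for Psmb8 and 3659 for Psmb9, while their longest coding transcripts have 1628 and 1352 bases. The size of a share is therefore approximate, whereas its comparison between groups uses the same lengths. Psmb8 made up 38.3 ± 1.45% of Psmb8 and Psmb5 together in cntrl in DMSO, 25.3 ± 0.651% in CDK8.1593 and 30.9 ± 1.37% in CDK8.1830 (SD, n = 3). Psmb9 made up 2.98 ± 0.493% of Psmb9 and Psmb6 in cntrl, 0.396 ± 0.0242% in CDK8.1593 and 0.690 ± 0.0256% in CDK8.1830. Psmb10 made up 17.2 ± 0.521% of Psmb10 and Psmb7 in cntrl, 15.9 ± 1.08% in CDK8.1593 and 15.7 ± 1.44% in CDK8.1830. The first and second shares did not overlap between cntrl and either hairpin line, whereas the third spanned 16.7 to 17.7% in cntrl and reached 16.9% in both hairpin lines. Psmb5 and Psmb6 passed the test in neither line, with adjusted p of 0.192 and 0.404 for Psmb5 and of 0.180 and 0.108 for Psmb6, and Psmb7 rose by 17% and 14.9%.

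The heavy chains shifted against each other. H2-K1 made up 15 ± 0.141% of H2-K1 and H2-D1 per kb in cntrl in DMSO, 18.9 ± 0.875% in CDK8.1593 and 11.3 ± 0.588% in CDK8.1830. The share was above cntrl in all 3 libraries of CDK8.1593 (18 to 19.7%) and below it in all 3 of CDK8.1830 (10.8 to 12%).

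**Figure D3:**
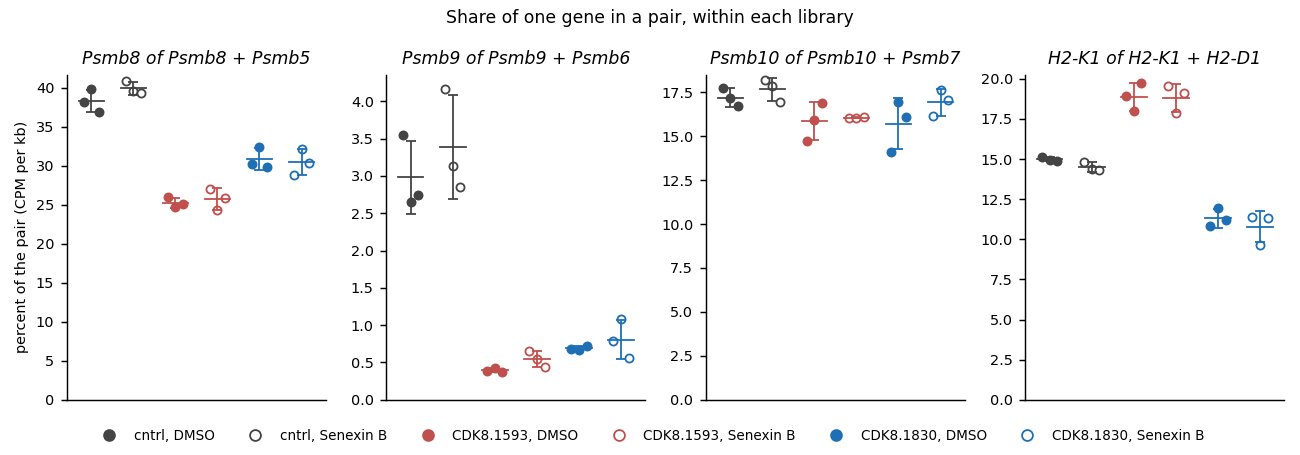
Share of 1 gene in a pair (percent of the summed CPM per kb, vertical axis from 0) in each library, with mean and SD. The Psmb8 and Psmb9 shares are lower in both hairpin lines than in cntrl, and the H2-K1 share is higher in CDK8.1593 and lower in CDK8.1830.

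The question for SnxB was whether blocking the kinase moved the same genes. None of the 10 passed the test in cntrl, in CDK8.1593 or in CDK8.1830 by edgeR, and none by DESeq2, where edgeR called 5.54%, 1.48% and 2.05% of all genes in the same comparisons. At an unadjusted p under 0.05, 2 of the 10 would have passed in cntrl, 1 in CDK8.1593 and 1 in CDK8.1830. In cntrl cells the 95% intervals of all 10 lay between −0.20 and 0.40 on the log2 scale, and without Psmb9 between −0.20 and 0.23. H2-D1 averaged 603.4 ± 11.5 CPM in DMSO and 587.9 ± 3.38 CPM in SnxB (log2 fold change −0.04, interval −0.10 to 0.03). B2m averaged 643.1 ± 15.3 and 631.4 ± 18.6 CPM (−0.03, −0.10 to 0.05), and Nlrc5 76.4 ± 2.67 and 75.1 ± 3.33 CPM (−0.02, −0.18 to 0.13). A fall of the size seen with either hairpin was outside these intervals.

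The libraries of cntrl in SnxB lay below those in DMSO without overlap for 3 genes, H2-K1, Tap2 and H2-D1, as did 9.57% of all genes, and above them for 1, Tapbp, as did 12.2% of all genes. None of these passed the test. H2-K1 was at 99.3, 99.7 and 103.5 CPM in SnxB (−0.09, adjusted p = 0.331), and Tap2 at 100.4, 102.3 and 102.6 CPM (−0.09, adjusted p = 0.244). H2-D1 was at 584.6 to 591.4 CPM (adjusted p = 0.605), and Tapbp at 94.32 to 104.4 CPM, just above the cntrl maximum of 94.31 CPM in DMSO (0.12, adjusted p = 0.174).

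In the hairpin lines the widest differences belonged to Psmb9 and Nlrc5. Psmb9 was at 1.06, 1.34 and 1.49 CPM in CDK8.1593 in SnxB, all above the DMSO libraries, but with 20 to 25 reads each (0.53 ± 0.26, interval −0.01 to 1.06, adjusted p = 0.356). Nlrc5 was at 14.0, 17.3 and 20.4 CPM in CDK8.1593 in SnxB, overlapping DMSO (−0.25 ± 0.09, adjusted p = 0.231). Without CDK8.1593 Senexin B replicate 1 it passed (−0.39, adjusted p = 0.0205), and without replicate 2 of the same group it was −0.12 (adjusted p = 0.673). The other 8 genes had intervals between −0.20 and 0.29 in both hairpin lines.

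**Figure D4:**
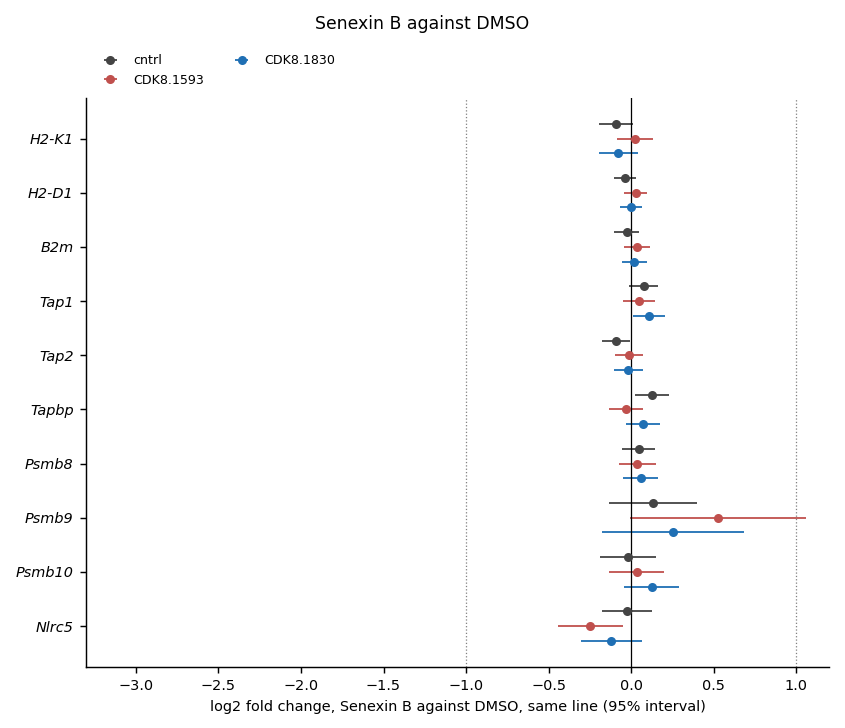
Log2 fold change of each class I gene in Senexin B against DMSO within each line (horizontal axis), with 95% intervals and dotted lines at 2-fold. Points lie near 0 in all 3 lines, the farthest being Psmb9 in CDK8.1593 at 0.53.

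Under SnxB the hairpin lines differed from cntrl as a comparison of its own, on other libraries than in DMSO. H2-K1, H2-D1, B2m, Tap1, Tap2, Psmb8, Psmb9 and Nlrc5 were again lower in both lines. This made 8 of 10 genes, where 30.1% of all genes were lower in CDK8.1593 and 28.6% in CDK8.1830. Over 2-fold, 3 of the 10 fell in each line (7.06% and 5.75% of all genes), H2-D1, Psmb9 and Nlrc5 in CDK8.1593 and H2-K1, Psmb9 and Nlrc5 in CDK8.1830. B2m in CDK8.1593 had a log2 fold change of −1.04 in DMSO and −0.98 in SnxB, and H2-D1 in CDK8.1830 had −1.01 and −0.98, close to the limit of 2-fold.

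Among the heavy and light chains in SnxB, H2-K1 was at 58.3, 60.0 and 61.9 CPM in CDK8.1593 and at 33.1, 37.7 and 38.8 CPM in CDK8.1830, and fell by 40.4% in CDK8.1593 and fell by 63.8% in CDK8.1830 against cntrl (−0.75 ± 0.05 and −1.47 ± 0.05). H2-D1 was at 251.7, 251.7 and 264.8 CPM in CDK8.1593 and at 289.8, 300.1 and 306.4 CPM in CDK8.1830, and fell by 56.5% in CDK8.1593 and fell by 49.2% in CDK8.1830 (−1.20 ± 0.03 and −0.98 ± 0.03). B2m was at 310.3, 313.7 and 339.1 CPM and at 351.0, 359.4 and 365.4 CPM, against 616.3 to 652.1 CPM in cntrl, and fell by 49.2% in CDK8.1593 and fell by 43.2% in CDK8.1830. For all 3 chains every hairpin library lay below every cntrl library, with adjusted p from 3.47e-17 to 8.99e-11. Such a separation in SnxB was found for 30.6% of all genes in CDK8.1593 and for 30.8% in CDK8.1830.

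For the transporter in SnxB, Tap1 was at 37.1, 38.2 and 38.8 CPM in CDK8.1593 and at 38.0, 39.2 and 40.4 CPM in CDK8.1830, against 68.4 to 74.6 CPM in cntrl, and fell by 46.8% in CDK8.1593 and fell by 45.2% in CDK8.1830. Tap2 was at 77.4, 78.0 and 81.6 CPM and at 81.9, 82.5 and 83.8 CPM, and fell by 22.4% and 18.7% (adjusted p = 1.93e-07 and 3.31e-06). Psmb8, the immunosubunit that takes the place of Psmb5, was at 31.4, 31.5 and 33.4 CPM and at 39.4, 41.0 and 44.9 CPM, against 53.9 to 55.5 CPM in cntrl. It fell by 41.6% and 23.9%, and CDK8.1593 was again the line with less of it.

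Nlrc5 fell by 77.0% in CDK8.1593 in SnxB (−2.12 ± 0.08, adjusted p = 1.84e-14) and fell by 71.8% in CDK8.1830 (−1.82 ± 0.08, adjusted p = 1.98e-13). Psmb9 fell by 81.2% (−2.42 ± 0.17, adjusted p = 1.99e-10) and fell by 72.4% (−1.86 ± 0.16, adjusted p = 4.09e-09). Tapbp rose in CDK8.1830 (0.20 ± 0.05, adjusted p = 0.00133), while in CDK8.1593 it was at 95.1, 97.2 and 101.9 CPM against 94.3, 95.9 and 104.4 CPM in cntrl, and the groups overlapped. Higher genes made up 30.5% of all genes in CDK8.1593 and 28.1% in CDK8.1830. Psmb10 was at 18.2, 19.7 and 21.2 CPM in CDK8.1830 against 17.1, 17.2 and 17.6 CPM in cntrl, with an adjusted p of 0.0558, and was past the test with scaling on library totals (adjusted p = 0.0149) and in a fit of the compared groups alone (adjusted p = 0.0480). It was also past it in 4 of 18 fits that left out a library (CDK8.1593 DMSO replicate 1, CDK8.1593 Senexin B replicates 1 and 2, or CDK8.1830 Senexin B replicate 1), at adjusted p of 0.0278 to 0.0485. In CDK8.1593 its log2 fold change was 0.14 (adjusted p = 0.143), and it passed without CDK8.1593 Senexin B replicate 1 (0.23, adjusted p = 0.0191), whereas without replicate 2 it was 0.06 (adjusted p = 0.562).

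No gene of the 10 passed a test of whether SnxB acted differently in a hairpin line than in cntrl, by edgeR or DESeq2. The shares over all genes were 0.305% for CDK8.1593 and 0.0548% for CDK8.1830, and at an unadjusted p under 0.05 the counts were 1 and 0 of the 10. The difference was largest for Psmb9 in CDK8.1593, at 0.39 with an interval from −0.21 to 0.99. The largest beside it was Nlrc5 in the same line, at −0.23 (−0.47 to 0.02, adjusted p = 0.539). It was −0.36 without CDK8.1593 Senexin B replicate 1 (adjusted p = 0.160) and −0.10 without replicate 2 (adjusted p = 0.812). The 1 gene at an unadjusted p under 0.05 was Tapbp in CDK8.1593, at −0.16 (−0.30 to −0.01, adjusted p = 0.476).

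The hairpin lines also differed from each other. In DMSO, H2-K1 was lower in CDK8.1830 than in CDK8.1593, where 9.91% of all genes were lower, and H2-D1, B2m, Psmb8 and Psmb9 were higher, where 11.2% of all genes were higher. H2-K1 in CDK8.1830 was at 0.651-fold its level in CDK8.1593 (−0.62 ± 0.05, adjusted p = 6.48e-08), and Psmb8 was 28.4% higher (0.36 ± 0.05, adjusted p = 3.51e-05). H2-D1 was 19.0% higher (0.25 ± 0.03, adjusted p = 8.96e-06), B2m 12.8% higher (0.17 ± 0.04, adjusted p = 0.00182) and Psmb9 77.9% higher (0.83 ± 0.24, adjusted p = 0.0165). The Psmb9 call was lost without CDK8.1593 DMSO replicate 3 (adjusted p = 0.0504) or without CDK8.1830 DMSO replicate 1 (adjusted p = 0.0594). Tap1 did not pass (−0.02, interval −0.12 to 0.08), nor did Tap2 (0.07, −0.02 to 0.16), Nlrc5 (0.16, −0.02 to 0.35), Tapbp or Psmb10. Tapbp passed without CDK8.1830 DMSO replicate 3 (0.15, adjusted p = 0.0430). CDK8.1593 was the line with less Cdk8 mRNA, and H2-K1 was the only gene of the 10 to pass the test as lower in CDK8.1830.

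In SnxB the same comparison gave 1 gene lower, H2-K1 (−0.72 ± 0.05, adjusted p = 1.28e-08), against 10.3% of all genes. It gave 5 higher, H2-D1 (0.22), B2m (0.16), Tapbp (0.20), Psmb8 (0.38) and Nlrc5 (0.29), against 10.6% of all genes. The Nlrc5 call (adjusted p = 0.0319) was lost in a fit of the compared groups alone and without CDK8.1593 Senexin B replicate 2 (0.17, adjusted p = 0.170) or replicate 3 (adjusted p = 0.0774), or CDK8.1830 Senexin B replicate 1 (adjusted p = 0.0572) or replicate 2 (adjusted p = 0.142). Psmb9 did not pass in SnxB (0.56 ± 0.22, adjusted p = 0.0826), and passed without CDK8.1830 Senexin B replicate 3 (0.75, adjusted p = 0.0163), whereas without replicate 2 it was 0.32 (adjusted p = 0.420).

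Ordered by level, both cntrl groups stood above the hairpin groups for H2-K1, H2-D1, B2m, Tap1, Tap2, Psmb8, Psmb9 and Nlrc5, with no overlap between the lowest cntrl and the highest hairpin library. The same separation was found for 19.6% of all genes. For B2m, Tap1, Psmb8, Psmb9 and Nlrc5 the cntrl groups in DMSO and SnxB overlapped each other. H2-K1 ran from cntrl over CDK8.1593 to CDK8.1830, whereas H2-D1, B2m and Psmb8 ran from cntrl over CDK8.1830 to CDK8.1593, with the lines apart and the treatments within each hairpin line overlapping. For Tap1, Tap2 and Nlrc5 the hairpin groups next to each other in the order overlapped throughout. The Psmb10 groups ranged from 17.3 to 19.7 CPM on average, and each overlapped the next.

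The other genes of the chromosome 17 stretch moved in both directions. Of 140 other genes between Tapbp and H2-D1 on chromosome 17, 57 were tested. In CDK8.1593 in DMSO, 14 of these fell (24.6%) and 12 rose (21.1%), and in CDK8.1830 12 fell (21.1%) and 12 rose, with medians of −0.03 and 0.05. Of all genes tested, 29.5% fell and 30.1% rose in CDK8.1593, and 28.1% fell and 29.0% rose in CDK8.1830. By over 2-fold, 5 and 3 of the 57 fell, as did 7.14% and 5.95% of all genes. Among the 7 listed genes of the same stretch, 6 fell in each line.

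Lists of genes around the class I pathway had medians nearer to 0 than the 10 genes. The nonclassical class I chains and relatives, with 4 genes tested, came closest to them, at −0.514 in CDK8.1593 and −0.415 in CDK8.1830 in DMSO. Of 14 genes of peptide loading and trimming tested, 8 fell and 3 rose in CDK8.1593 in DMSO and 6 fell and 2 rose in CDK8.1830, none by over 2-fold. The shares over all genes were 29.5% lower and 30.1% higher in CDK8.1593, and 28.1% lower and 29.0% higher in CDK8.1830. Sec61b, a subunit of the translocation channel of the endoplasmic reticulum, fell by 28.9% and 28.4%, and Lnpep, an endosomal aminopeptidase, by 19.3% and 20.4%. Tapbpl, a tapasin relative, rose by 52.7% and 22.2%, and Ide, a cytosolic protease, by 17.5% and 31.7%. Medians of this list were −0.14 and −0.07.

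Of 12 proteasome genes outside the immunosubunits, 5 rose and 1 fell in each line, none by over 2-fold. Over all genes, 30.1% and 29.0% rose, and 29.5% and 28.1% fell, in CDK8.1593 and CDK8.1830. Psma3, an alpha ring subunit, rose by 55.4% and 66.3%, and Psme3, an activator of the nuclear proteasome, by 16% and 11.4%. Psme2, of the interferon-inducible PA28 activator, fell by 15.5% in CDK8.1593 (adjusted p = 0.0209), and its log2 fold change in CDK8.1830 was −0.02 (adjusted p = 0.862).

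Among 24 tested regulators of class I transcription, 12 fell and 6 rose in CDK8.1593 and 8 fell and 6 rose in CDK8.1830. Of all genes, 29.5% fell and 30.1% rose in CDK8.1593, and 28.1% fell and 29.0% rose in CDK8.1830. Irf8, a transcription factor of the interferon regulatory family, was the gene among them that fell by over 2-fold, from 18.3, 19.5 and 19.7 CPM in cntrl to 0.987, 1.14 and 1.65 CPM in CDK8.1593 and 0.919, 1.26 and 1.87 CPM in CDK8.1830 (−3.95 ± 0.18 and −3.79 ± 0.17). Irf8 also fell in SnxB in cntrl cells, to 12.7, 12.9 and 14.2 CPM (−0.53 ± 0.12, adjusted p = 0.00887), the only regulator of the list to pass there. Nfkb1, which encodes the p105 precursor of an NF-kB subunit, fell by 44.8% and 39.9%.

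The RFX complex, which binds the class I promoter element together with NLRC5, moved in both directions. Rfxap rose by 67.5% and 44.4%, and Rfxank fell by 30.2% and 40.1%, while Rfx5 fell by 12.7% in CDK8.1593 (adjusted p = 0.0454) and had a log2 fold change of −0.04 in CDK8.1830. Irf9, a DNA-binding factor of the type I interferon response, rose by 49.4% and 58.0%. Ciita, the class II counterpart of Nlrc5, had at most 9 reads in any library and was not tested. Rfx5, Irf9 and Ciita are named here for their known roles after their values were seen.

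Of 10 nonclassical class I chains and relatives, 4 had enough reads for the test. Reads that match several genes were not counted, and H2-D1 shares 50-base stretches with H2-Q6 and H2-Q7 of this list. How far this lowered the counts of the list was not tested. H2-M3 fell by 62.9% and 56.7% and H2-T22 by 31.8% and 33.8%, while Mr1 rose by 11.8% in CDK8.1593 (adjusted p = 0.00139) and had a log2 fold change of 0.02 in CDK8.1830.

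**Figure D5:**
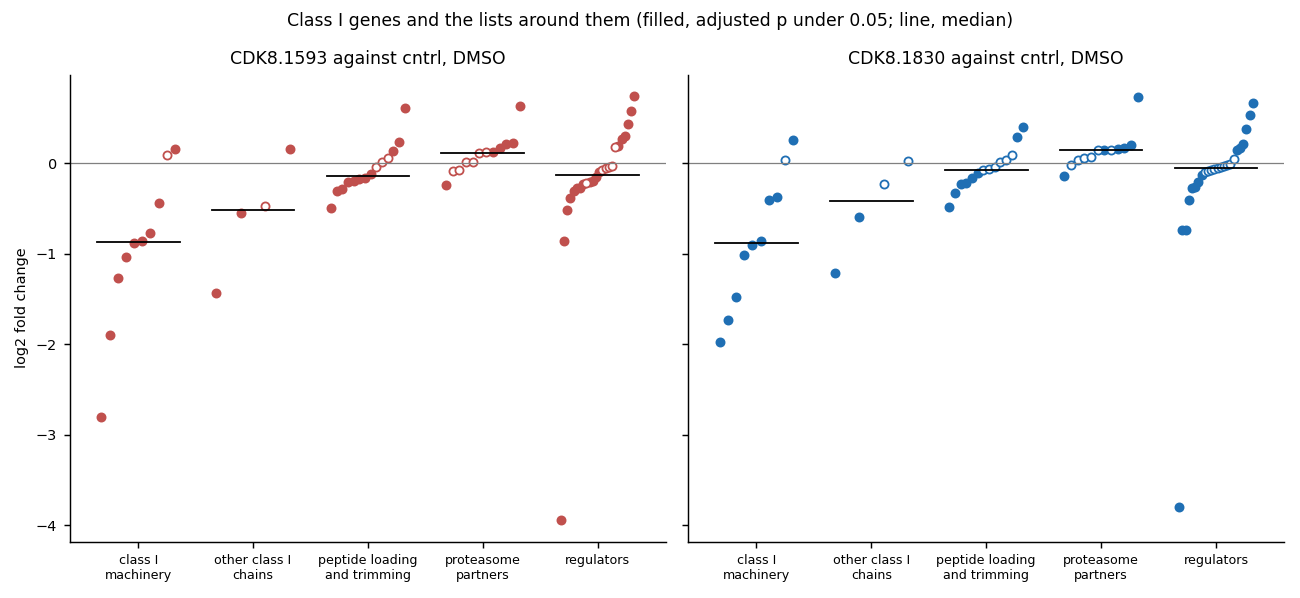
Log2 fold change in DMSO (vertical axis) of the 10 class I genes and of the genes of 4 lists around them, in CDK8.1593 (left) and CDK8.1830 (right) against cntrl. Filled points passed the test and black lines are medians, −0.87 and −0.88 for the class I genes, and the lowest regulator is Irf8.

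The genes most like the class I genes in pattern were sought among 9632 genes of at least 5 CPM by Pearson's r of log2 CPM over the 18 libraries, which fall into 6 groups and share depth and scaling across genes. With the mean of the 10 standardised profiles, Pla2g4a, encoding a cytosolic phospholipase, had the highest r (0.989), followed by Sun2, Enox2, Ets1 and Prkcsh (0.988 each). Pla2g4a averaged 82.1 CPM in cntrl in DMSO, 9.37 CPM in CDK8.1593 and 13.7 CPM in CDK8.1830. Abcg2, an efflux transporter, was nearest to both H2-D1 and B2m (0.998 each), at 114.0, 25.6 and 32.4 CPM in the same groups. The nearest gene was Gnao1 for Tap1 (0.995), Atp11a for Nlrc5 (0.996), Lztfl1 for Psmb8 (0.990), Map2k6 for Tap2 (0.985) and Trim30a for H2-K1 (0.984). Values were lower for Tapbp, with Ddb1 (0.929), and for Psmb10, with Mettl26 (0.837). These values are given as a description.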

How the data were processed

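RNA-seq of E0771 cells (total RNA, 50 bp single-end reads, 18 libraries) was analysed from gene counts. The authors trimmed reads with Trimmomatic, mapped them with STAR to GRCm38 with GENCODE M13, and made the deposited counts with featureCounts over exons, using strand and leaving out reads of several places or genes. The deposited counts are raw. Gene IDs were matched to symbols of GENCODE M21 (50376 of 50686). Groups and replicate numbers are those of the labels, and for CDK8.1830 the file headers carry the numbers 2, 3 and 3 for the libraries labelled 1, 2 and 3.

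Counts were fitted with edgeR 4.0.16 in R 4.3.3 (filterByExpr at its minimum count, 10, and minimum total, 15, TMM, glmQLFit and glmQLFTest on 18 libraries, Benjamini-Hochberg over 12772 genes). Genes past an adjusted p of 0.05 rose or fell. Standard errors are those implied by the F statistic of that test, and intervals are 95%. DESeq2 1.42.0, library totals, other filters and fits without each library were alternatives. The procedure was tested on simulated data. The 10 genes and all lists were chosen with earlier results of these data known, so their counts are descriptions beside those over all genes. Named list genes are the up to 4 of each list past the test with the largest change in either hairpin line in DMSO and a mean of at least 1 CPM. Promoter motifs were counted in 27018 RefSeq windows (GRCm38.p6, first listed start of each gene). Tap2 and Nlrc5 promoters were not used here. With 16452260 to 22664693 counts per library, 3 counts are 0.132 to 0.182 CPM. Some list and pattern genes are not reported here.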

Additional observations from a re-analysis of the deposited data

How the results depend on the processing

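Every member that fell in a hairpin line against cntrl also did so with DESeq2 size factors, library totals, DESeq2's Wald test, no filter on low counts, a minimum above 1 CPM for 3 or more libraries, only the compared groups, the replicate block, and in each of 18 fits without a library. Tested against a 2-fold change with edgeR's glmTreat, 3 members in each line were called in DMSO, in place of 4, and 3 in Senexin B, as before. At an adjusted p under 0.01, 9 members in each line passed in DMSO, and 8 in CDK8.1593 and 9 in CDK8.1830 in Senexin B. Between the hairpin lines 4 in place of 5 then passed in DMSO and 5 in place of 6 in Senexin B. Changes of direction were seen among values that passed no test, and the cause was not tested. For H2-D1 in Senexin B in CDK8.1830 (−0.002) the value was 0.002 with DESeq2 size factors and with library totals and 0.001 with the Wald test and with the CPM filter. With library totals, Tapbp in CDK8.1593 against cntrl in Senexin B was 0.051, and the interactions in CDK8.1593 were 0.002 for Tap1 and 0.021 for Psmb8. Without the filter, the interactions in CDK8.1830 were −0.006 for H2-K1 and −0.008 for Psmb8, and 1 member (Nlrc5, adjusted p = 0.0419) passed in Senexin B in CDK8.1593.

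Over fits that leave out a library, 0 to 1 members passed in Senexin B in CDK8.1593, and these log2 fold changes took both signs. In Senexin B in cntrl they were −0.043 to 0.005 for Psmb10 and −0.054 to 0.013 for Nlrc5. In CDK8.1593 they were −0.018 to 0.051 for H2-K1, −0.007 to 0.060 for B2m, −0.053 to 0.008 for Tap2 and −0.041 to 0.115 for Psmb10, and in CDK8.1830 −0.013 to 0.020 for H2-D1 and −0.032 to 0.012 for Tap2. For Tapbp in CDK8.1593 against cntrl in Senexin B they were −0.022 to 0.038. Between the hairpin lines they were −0.041 to 0.010 for Tap1 and −0.103 to 0.002 for Psmb10 in DMSO, and −0.037 to 0.118 for Psmb10 in Senexin B. The interactions in CDK8.1593 were −0.053 to 0.004 for Tap1, −0.037 to 0.028 for Psmb8 and −0.021 to 0.143 for Psmb10, and in CDK8.1830 −0.017 to 0.093 for H2-K1, −0.029 to 0.060 for Psmb8 and −0.106 to 0.325 for Psmb9.

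In no comparison were the deviations of all 3 same-numbered pairs correlated above 0.1, so that the numbers were not taken as pairing. All 3 correlations were positive in CDK8.1830 against cntrl in Senexin B (0.073 to 0.318) and in Senexin B in CDK8.1593 (0.036 to 0.097). All 6 libraries lay nearest to their own number in Senexin B in CDK8.1593, and 0 to 5 of 6 in the other comparisons. With the replicate block, 10 members in place of 9 passed in CDK8.1830 against cntrl in Senexin B (Psmb10, 0.187, adjusted p = 0.0165), and no other member's call changed. Over all genes, 11 in place of 7 passed for the interaction in CDK8.1830. With CPM on library totals, 8 of 60 group levels moved by more than their SD. Depth limits Psmb9 most, at 16 to 44 reads in the hairpin lines.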
